A study of Homo sapiens with 52 samples.

Results

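WI-38 cells, normal fibroblasts of human lung that divide a limited number of times in culture, were exposed for 24 h to 0.009% sodium dodecyl sulfate (SDS), a detergent that opens small wounds in the plasma membrane, and were then washed and returned to fresh medium. The cells that stop dividing afterwards are called PMD-Sen, for plasma membrane damage-dependent senescence. The groups described here are PMD-Sen cells collected 6 days and 8 days after the wash, each set against the same untreated WI-38 cells, which the labels place at population doubling levels from 32 to 46. Each of the 3 groups holds 2 mRNA-seq libraries, so 6 of the 52 libraries of the series enter. A gene was a member when its deposited mean normalized count was at least 10 in both the day 6 and the day 8 table, and 14251 of the 59408 genes listed met this. All groups are of 1 cell line. The labels give no day for the untreated cells and no doubling level for the treated ones. The SDS exposure and the time in culture therefore cannot be told apart in the comparisons with untreated cells.

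A cell whose membrane is torn lets in Ca2+, seals the wound with repair proteins such as the ESCRT machinery and annexins, and in most cases survives. Senescence is a lasting exit from the cell cycle in a cell that stays alive. It is usually held by the tumour suppressor p53, which switches on CDKN1A (p21), and by CDKN2A (p16). Both proteins block cyclin-dependent kinases, so that RB-family proteins stay bound to E2F factors and, with the DREAM and MuvB complexes, keep S phase and mitosis genes silent. Senescent fibroblasts are also known for the loss of lamin B1, for larger lysosomes, and for a secretory programme of cytokines, proteases and matrix proteins called the SASP.

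The deposited tables give 1 mean per gene over the untreated and treated libraries together. The whole reads behind those means were recovered for each library, and each library is called the smaller or the larger of its group by its depth. The recovered libraries held 15258997 and 18971753 reads for untreated cells, 21322613 and 25583439 for day 6, and 23268488 and 51457645 for day 8. Levels are given as normalized counts, which are reads divided by the size factor of the library. The libraries of 1 group correlated across genes with r from 0.9867 to 0.9874, and treated with untreated libraries with r from 0.9708 to 0.9762. Day 6 with day 8 libraries had r from 0.982 to 0.9898, so libraries of 1 day were not clearly more alike than those of the 2 days. The first principal component held 46.9% of the variance and put the untreated libraries at -39.1 and -40 and the 4 treated libraries between 15.7 and 24.2. The second held 18.3% and parted libraries within each day, at 29.5 and -1.52 for day 6 and -4.28 and -28 for day 8. Fibroblast markers summed to 443000 to 698000 normalized counts in each library. Of the markers of other cells, 4 of 12 for epithelium (KRT5, SFTPC and NKX2-1 among them), 3 of 12 for leukocytes (with ITGAM and CD2) and 1 of 10 for endothelium (CDH5) had no read in any of the 6 libraries. The epithelial list summed to 2820 to 4020 normalized counts a library, the leukocyte list to 32.0 to 68.7, the endothelial list to 1900 to 3080 and the 10 neuronal markers to 271 to 307, and the part of other cells in the results was not tested. In bulk RNA, fewer cells of a type and less RNA per cell cannot be told apart.

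On day 6 the most evident change was the fall of genes of mitosis, DNA replication and the nuclear lamina, and beside it CDKN1A and CCND2 rose, with 13 of 27 p53 targets and 13 of 29 lysosomal genes called higher. Without the larger untreated library 2 p53 targets and 0 lysosomal genes were called on that day by limma. Against untreated cells, limma's voom test with Benjamini-Hochberg adjustment over the 14251 genes called 1996 genes at an adjusted p under 0.05 on day 6 (14.0%), of which 891 were higher (6.25%) and 1105 lower (7.75%), while 4305 (30.2%) had an unadjusted p under 0.05. Of the calls, 153 were higher (1.07%) and 374 lower (2.62%) by at least 2-fold. On day 8 the same fit called 1595 genes (11.2%), 724 higher (5.08%) and 871 lower (6.11%), and 4004 (28.1%) at an unadjusted p under 0.05, with 163 higher (1.14%) and 307 lower (2.15%) by at least 2-fold. The median log2 fold change over all genes tested was -0.003 on day 6 and 0.0 on day 8, and the median standard error (SE) was 0.15 on both days. These counts depended on single libraries. Without the smaller untreated library 568 genes were called on day 6 and 432 on day 8, and without the larger one 347 and 296. Without the smaller day 6 library 899 genes were called on day 6, without the larger one 1284, and without the larger day 8 library 740 were called on day 8. For most calls named below that were lost when 1 library was left out, the highest of the 6 adjusted p-values so obtained is given, and for other list members the number of calls left in the list. The list counts below stand beside the 14.0% on day 6 and 11.2% on day 8 called over all genes tested. On day 6 the cytokines, the collagens, the TGF-beta and BMP genes and the AP-1 genes were near that share. So were the heat shock, mitochondrially encoded and NRF2 genes. Near the day 8 share were the NF-kB feedback, annexin and ferlin, actin, prostaglandin, glycolysis and cholesterol genes. A count near or below these shares does not set a list apart from all genes tested.

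Both days were set against the same 2 untreated libraries, so the error of those libraries is common to the comparisons, and the days are described side by side without a test of likeness. There were 517 genes called higher on both days, 58.0% of the day 6 list and 71.4% of the day 8 list. There were 682 genes called lower on both, 61.7% and 78.3% of the lists. A further 373 genes were called higher on day 6 alone, and 370 of these also had a positive fold change on day 8. None of the genes called on 1 day alone differed between the days by the test of that difference, so a call on a single day is not a sign that the gene was specific to it. Only OLFM2, a secreted glycoprotein of the olfactomedin family, was called in opposite directions, and its values are given with the comparison of the days.

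**Figure D1:**
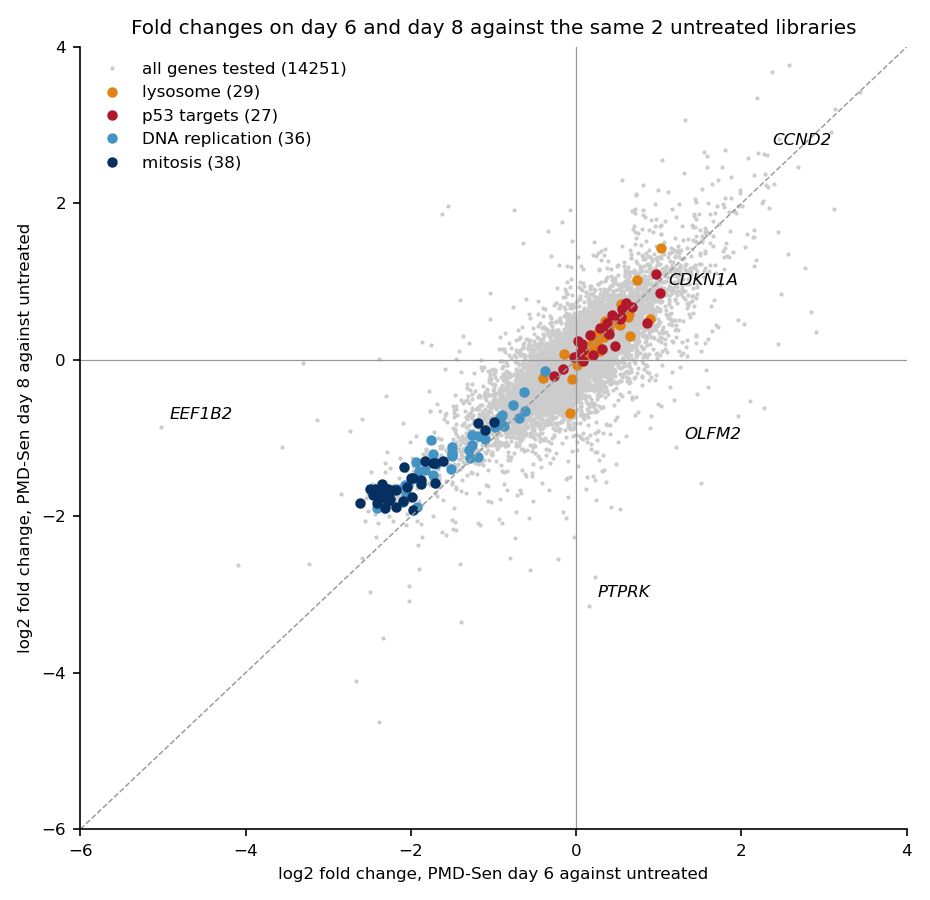
Log2 fold change against untreated cells on day 6 (horizontal axis) and day 8 (vertical axis) for the 14251 genes, with 4 gene lists in colour and the line of equal change dashed; 2 genes lie beyond the axes. The mitosis and DNA replication genes sit at the lower left on both days and mostly above the dashed line, so their fall was smaller on day 8, and the p53 and lysosome genes sit mostly at the upper right.

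Of the 33 gene lists, that of mitosis had the lowest median. All 38 listed genes that were tested were lower on day 6 and all 38 on day 8, with a median log2 fold change of -2.20 and -1.66. They build the spindle, the kinetochore and the checkpoint, and are transcribed from late S phase until the cell divides. Leaving out any 1 library left 37 or 38 calls on day 6 and 36 to 38 on day 8.

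The promoters of KIF18B, a kinesin of spindle microtubules, ASPM, a protein of the spindle pole, and MKI67, which coats mitotic chromosomes and is the Ki-67 proliferation marker, are shown because these had the largest changes on day 6 among the 38 genes of this list. In capitals are the letters TTTGAA, the core of the cell cycle homology region that MuvB complexes bind, and CCAAT, the box bound by NF-Y, on either strand (read as TTCAAA and ATTGG on the other). The sequences are from RefSeq on GRCh38.p14, from 250 bases before to 50 after the gene start, all on the minus strand, at chr17:44947724-44948023, chr1:197146620-197146919 and chr10:128126374-128126673.
KIF18B: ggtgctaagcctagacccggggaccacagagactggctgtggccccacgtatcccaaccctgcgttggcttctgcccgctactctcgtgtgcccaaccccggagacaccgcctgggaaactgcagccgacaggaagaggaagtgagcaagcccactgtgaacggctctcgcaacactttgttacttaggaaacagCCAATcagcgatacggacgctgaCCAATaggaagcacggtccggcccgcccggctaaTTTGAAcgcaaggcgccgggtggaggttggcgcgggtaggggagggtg
ASPM: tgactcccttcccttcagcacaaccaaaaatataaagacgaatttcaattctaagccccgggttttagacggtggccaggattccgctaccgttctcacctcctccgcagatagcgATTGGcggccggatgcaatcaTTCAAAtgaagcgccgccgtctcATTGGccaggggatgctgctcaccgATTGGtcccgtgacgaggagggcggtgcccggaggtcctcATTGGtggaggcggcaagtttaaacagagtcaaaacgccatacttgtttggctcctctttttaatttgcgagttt
MKI67: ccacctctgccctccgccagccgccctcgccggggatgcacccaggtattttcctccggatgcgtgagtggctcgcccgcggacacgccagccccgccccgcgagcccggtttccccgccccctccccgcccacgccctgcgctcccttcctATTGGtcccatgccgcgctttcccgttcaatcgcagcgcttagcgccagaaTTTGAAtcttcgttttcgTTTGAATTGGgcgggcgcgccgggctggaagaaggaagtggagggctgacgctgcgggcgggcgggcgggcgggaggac
In MKI67 one TTTGAA overlaps an ATTGG. Of the 38 mitosis genes 33 had a promoter in the RefSeq table, and 24 of these (72.7%) held TTTGAA, compared with 9.73% of the 10256 promoters of genes tested and 15.4% of all 27305 promoters. CCAAT stood in 23 (69.7%), compared with 36.4% and 35.7%. Both motifs stood together in 17 (51.5%), compared with 4.05% and 6.08%. By contrast, only 1 of 32 promoters of DNA replication genes (3.12%) held TTTGAA and 19 (59.4%) held CCAAT. A match of letters is a description of the sequence and does not show that a factor was bound.

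MKI67 stood at 3650 and 4674 normalized counts in the smaller and larger untreated libraries, at 634 and 870 on day 6, and at 1241 in both day 8 libraries. Both day 6 libraries lay below both day 8 libraries, and all 4 far below the untreated ones. The log2 fold change was -2.46 (SE 0.17, adjusted p = 0.000219) on day 6 and -1.73 (SE 0.16, adjusted p = 0.000841) on day 8. DLGAP5, a stabilizer of spindle microtubules, had 1069 and 981 in untreated cells, 140 and 184 on day 6 and 268 and 303 on day 8, which gave -2.65 (SE 0.16) and -1.82 (SE 0.13). KIF18B had 425 and 513, then 64.6 and 87.5, then 142 and 128. ASPM had 1735 and 1730, then 211 and 427, then 552 and 549. In all of these genes the 3 groups did not overlap and the order was untreated, day 8, day 6. The same order held for TOP2A (topoisomerase II of condensing chromosomes), chosen after its values were seen, at -2.43 and -1.72. The kinetochore gene CENPM (-2.52 and -1.94), PIMREG (-2.39 and -2.09) and DEPDC1 (-2.44 and -1.97) were also among the largest falls and kept their calls without any 1 library. The spindle gene TROAP fell by 2.47 on day 6 and by 1.59 on day 8, and SAPCD2 changed by -2.49 and -1.43. On day 8 these calls were lost without the larger untreated library, at adjusted p-values of 0.0609 and 0.0777.

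**Figure D2:**
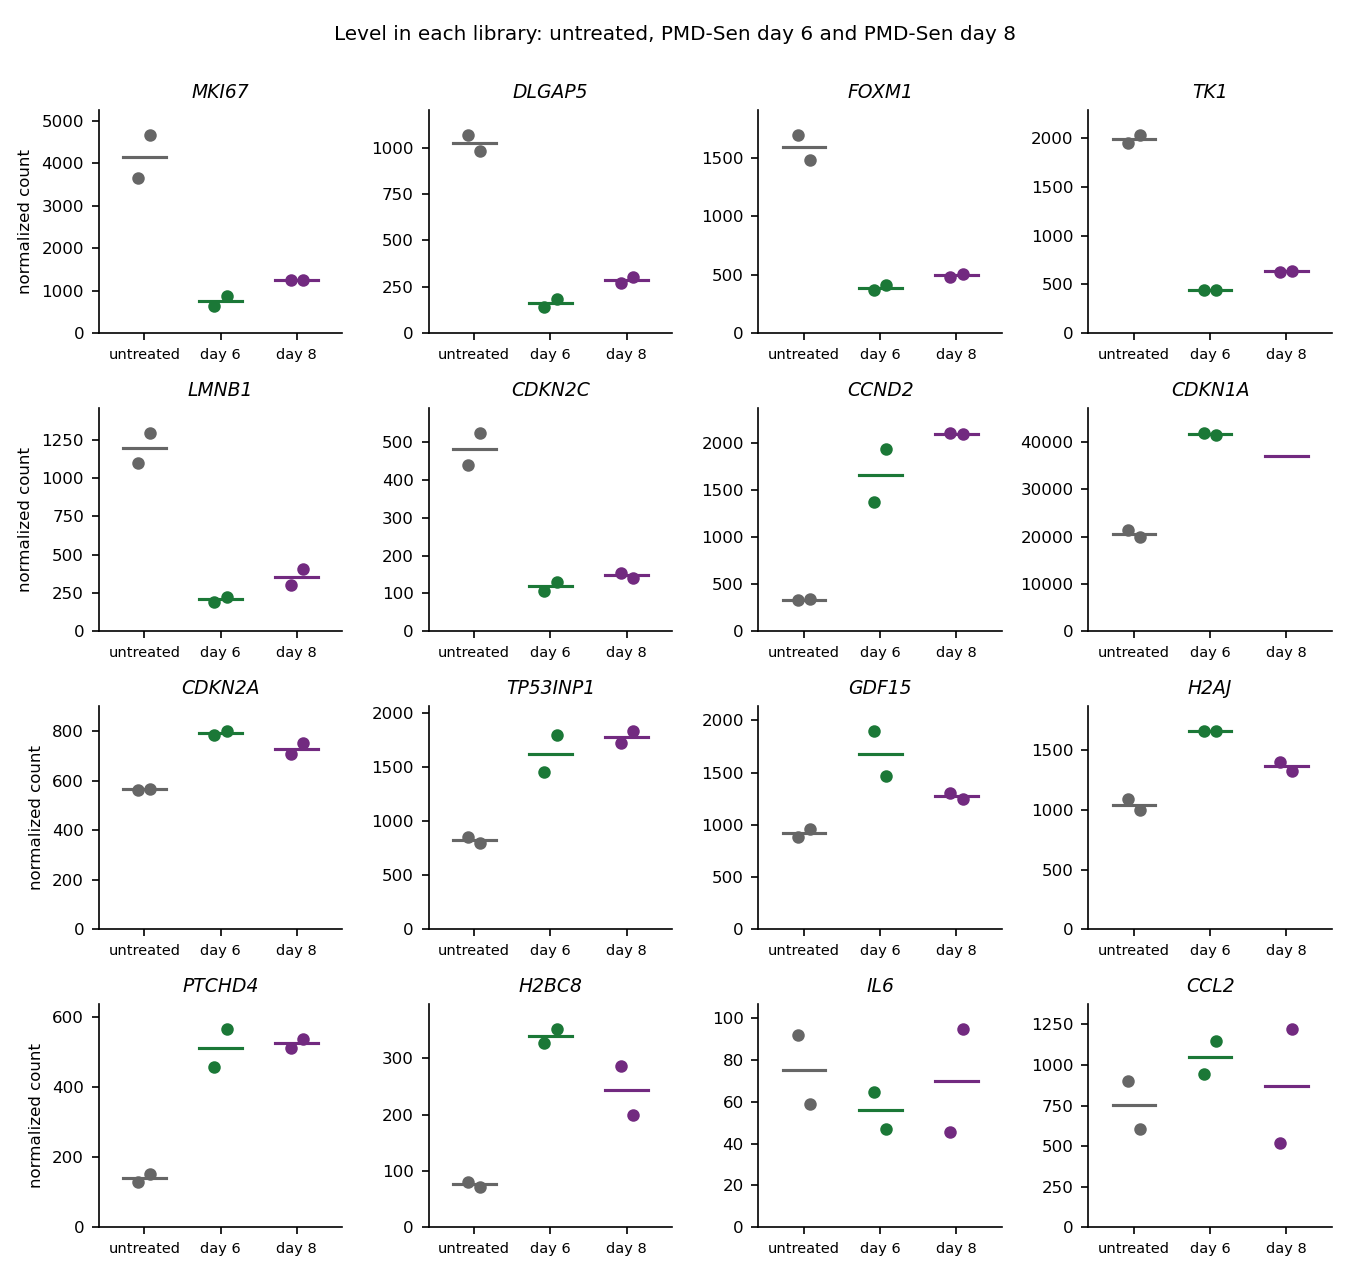
Normalized count in each library (points, smaller library left, larger right) and group mean (line) of 16 genes in untreated, day 6 and day 8 cells; for CDKN1A on day 8 only the mean is drawn, since the reads of the single libraries are not settled. The proliferation genes of the first row and LMNB1 and CDKN2C are low on both days, CCND2, CDKN1A, TP53INP1, PTCHD4 and H2BC8 are high on both days, and the libraries of IL6 overlap among the groups.

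DNA replication genes fell as a group as well. Of 36 members 34 were lower on each day, and the median log2 fold change was -1.50 on day 6 and -1.20 on day 8. All 36 had both day 6 libraries below both untreated ones, as 30.8% of all genes tested did, and 35 had both day 8 libraries below them (29.9%). TK1, the thymidine kinase of dividing cells, stood at 1949 and 2033 in untreated cells, at 438 and 445 on day 6 and at 630 and 633 on day 8, a change of -2.17 (SE 0.10, adjusted p = 9.75e-05) and -1.66 (SE 0.09, adjusted p = 0.000328). CDC45, which joins the MCM helicase at the replication fork, had 304 and 348, then 68 and 55.5, then 108 and 77.9. MCM10, which starts the fork, had 300 and 392, then 90.6 and 73.4, then 118 and 88.1. These 3 genes had no overlap between treated and untreated libraries. The helicase subunit MCM2 changed by -1.50 and -1.21, and PCNA, the sliding clamp that also serves in DNA repair, by only -0.64 and -0.42 (both genes chosen after their values were seen). Without the larger untreated library 24 replication genes were called on day 6 and 23 on day 8.

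Among 20 regulators of the E2F and MuvB system, 8 were lower on day 6 and 7 on day 8, and none was higher. FOXM1, the transcription factor that drives mitosis genes, had 1695 and 1482 in untreated cells, 368 and 410 on day 6 and 481 and 508 on day 8, which gave -2.02 (SE 0.12) and -1.67 (SE 0.11). MYBL2, its partner in the MuvB complex, changed by -2.10 and -1.83. E2F8, a repressor of late S phase, had few reads, with 49.7 and 82.8, then 7.93 and 9.41, then 21.6 and 18.9, and on day 8 its call was lost without the larger untreated library (adjusted p = 0.131). The RB relative RBL1 fell by 1.36 and 1.13 and E2F1 by 0.97 and 1.00, and the median of the list was -0.36 and -0.38. Calls without the larger untreated library numbered 4 on day 6 and 3 on day 8, without the smaller day 6 library 5 on day 6, and without the larger day 8 library 4 on day 8.

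Genes of the nuclear lamina and of chromatin fell with a median of -0.62 on day 6 and -0.57 on day 8. Of 23 members 15 were lower on day 6 and 14 on day 8, and 1 was higher on each day. LMNB1, which encodes lamin B1, had 1096 and 1293 in untreated cells, 190 and 225 on day 6 and 302 and 408 on day 8. The groups did not overlap, and the change was -2.52 (SE 0.19, adjusted p = 0.000341) and -1.72 (SE 0.16, adjusted p = 0.000865). The chromatin protein HMGB2 changed by -1.97 and -1.26 and EZH2, the methyltransferase of Polycomb complex PRC2, by -1.75 and -1.31. The lamina anchors TMPO (-1.67 and -1.31) and LBR (-1.20 and -0.86) fell too. The histone variant H2AJ, known to accumulate in senescent fibroblasts, was the member that rose, from 1088 and 998 to 1659 and 1660 on day 6 and to 1402 and 1326 on day 8 (0.67, SE 0.09, and 0.39, SE 0.09). Without the larger untreated library the calls in the list numbered 11 and 9, those of H2AJ (adjusted p = 0.0664 and 0.264) and of HMGB2 on day 8 (0.0859) being among the losses.

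Inhibitors of cyclin-dependent kinases did not move as 1 group. Of 13 inhibitors and G1 cyclins, 4 were higher and 3 lower on day 6, and 3 were higher and 3 lower on day 8. CDKN1A stood at 21392 and 19848 in untreated cells and at 41928 and 41485 on day 6, and its mean on day 8 was 37040. This was a change of 1.02 (SE 0.12, adjusted p = 0.00203) and 0.85 (SE 0.12, adjusted p = 0.00558), and the day 8 call was lost without the larger untreated library (adjusted p = 0.0764). The day 8 reads of CDKN1A per library are not settled, so its day 8 SE and adjusted p rest on the pair of reads fitted. CDKN2A had 565 and 568 in untreated cells, 787 and 802 on day 6 and 707 and 752 on day 8. It was called on day 6 (0.49, SE 0.10, adjusted p = 0.0202, up to 0.153 without 1 library) and not on day 8 (0.37, SE 0.10, adjusted p = 0.0541), although no treated library overlapped an untreated one. Its reads cannot tell p16 from the ARF transcript of the same locus. CDKN2B, the neighbouring p15 inhibitor, was called on day 8 at 0.74. CDKN2C, the p18 inhibitor, went the other way, from 439 and 525 to 108 and 130 and to 154 and 141 (-2.02, SE 0.18, and -1.73, SE 0.15). CDK2, the kinase of the G1/S step, was lower by about the same amount on each day (-0.96 and -0.97).

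The D-type cyclin CCND2 had the largest rise among the named genes that kept their calls without any 1 library. It had 328 and 346 normalized counts in untreated cells, 1377 and 1943 on day 6 and 2111 and 2095 on day 8, so both day 8 libraries lay above both day 6 libraries. The change was 2.28 (SE 0.20, adjusted p = 0.000473) and 2.64 (SE 0.20, adjusted p = 0.000499). CCND1, of the same family, was called on day 6 only (0.85, adjusted p = 0.0295, and 0.68, adjusted p = 0.0753 on day 8). Calls of the list numbered 4 on day 6 without either of the untreated libraries, and 3 on day 8 without the larger one.

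Targets of p53 rose in part. Of 27 tested, 13 were higher on day 6 and 9 on day 8, none was lower, and the median log2 fold change was 0.36 and 0.33. TP53INP1, which p53 induces under stress, had 858 and 800 in untreated cells, 1458 and 1797 on day 6 and 1724 and 1836 on day 8 (0.97, SE 0.13, and 1.10, SE 0.13). GDF15, a stress cytokine, had 878 and 962, then 1897 and 1468, then 1301 and 1249. It was called on day 6 (0.85, SE 0.14, adjusted p = 0.00719) and had 0.47 (SE 0.14, adjusted p = 0.0663) on day 8, and the day 6 call was lost without the smaller untreated library (0.058). MDM2, the ligase that degrades p53, had 3174 and 3250, then 3984 and 4491, then 3953 and 4121. It was called on day 6 (0.40, adjusted p = 0.0292, up to 0.166 without 1 library) and not on day 8 (0.33, adjusted p = 0.0658). The ribonucleotide reductase subunit RRM2B (0.56 and 0.65), SESN1 (0.53 and 0.52), TIGAR (0.68 and 0.67), ZMAT3 (0.54 and 0.54) and BTG2 (0.60 and 0.73) were called on both days. These calls depended on the untreated libraries: without the smaller one 3 p53 targets were called on each day, and without the larger one 2 on each day. Without the smaller or the larger day 6 library 7 and 4 were called on day 6, and without the smaller or the larger day 8 library 5 and 3 on day 8. The list is written from general knowledge of p53 targets and shares CDKN1A with the list above.

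Genes of the histone clusters were higher on both days. This group was chosen after its values were seen. Of 20 tested, 16 were higher on day 6 and 15 on day 8, none was lower, and the median log2 fold change was 1.49 and 1.19. H2BC8 had 80.7 and 72.6 in untreated cells, 327 and 352 on day 6 and 286 and 200 on day 8 (2.15, SE 0.27, and 1.57, SE 0.27). The linker histone H1-2 had 562 and 428, then 1418 and 1698, then 1122 and 1126 (1.68 and 1.21). H4C9 had 259 and 171, then 640 and 624, then 526 and 415 (1.60 and 1.14). Histone transcripts of dividing cells mostly end in a stem-loop, and a part is known to carry a poly(A) tail in cells that left the cycle. Which form was counted here was not tested, and near-identical copies make single members uncertain. Without the larger untreated library 6 histone genes were called on day 6 and 3 on day 8, without the smaller one 11 and 8, and without the larger day 8 library 10 on day 8. The day 8 call of H2BC8 was lost without either untreated library (adjusted p up to 0.107).

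Other large rises were of single genes with varied roles. PTCHD4, a patched-like protein that p53 is known to induce, had 130 and 152 in untreated cells, 456 and 565 on day 6 and 513 and 538 on day 8 (1.85, SE 0.19, and 1.89, SE 0.19). TMEM178B, a membrane protein of little known function, had 96.2 and 93, then 376 and 427, then 516 and 613 (2.08 and 2.58, SE 0.21 on both days). INMT, an amine methyltransferase, had 376 and 417, then 1088 and 1064, then 1182 and 1408 (1.44, SE 0.14, and 1.70, SE 0.13). In these 3 genes all treated libraries stood above all untreated ones. FBXO32, the ubiquitin ligase atrogin-1 that marks catabolic cells, changed by 1.82 and 1.49, and FLII, a gelsolin relative, by 2.05 and 1.45. RGS5, a brake on G protein signalling, had 247 and 232, then 641 and 654, then 1329 and 775. The Wnt antagonist DKK2 changed by 1.68 and 1.87. Of these, FBXO32 on day 8 (adjusted p = 0.0773), RGS5 on both days (0.144 and 0.0617) and DKK2 on both days (0.0652 and 0.0502) lost their calls without the larger untreated library.

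Some large rises were called on 1 day. SERPINB2, the urokinase inhibitor PAI-2, had 121 and 113 in untreated cells, 406 and 509 on day 6 and 250 and 132 on day 8, and was called on day 6 (1.96, SE 0.34). HSPB7, a small heat shock protein of muscle, was called on day 6 at 1.72 and had 0.42 on day 8. RNH1, a ribonuclease inhibitor, was called at 2.47 (SE 0.53) on day 6 with unequal libraries in each group (259 and 122, then 1346 and 706, then 198 and 411). On day 8 the monoamine oxidase MAOA (1.67), the iron exporter SLC40A1 (1.78) and the lipid transporter ABCA7 (1.92) were called, while their day 6 changes of 0.80, 0.91 and 0.81 were not. Without 1 of the untreated libraries each of these calls was lost, with adjusted p up to 0.162 for RNH1, 0.154 for HSPB7, 0.095 for SERPINB2, 0.0957 for MAOA, 0.058 for SLC40A1 and 0.057 for ABCA7. None of the 6 genes differed between the days by the test.

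Several of the largest falls were outside the cell cycle. GAL, the neuropeptide galanin, had 307 and 173 in untreated cells, 54.4 and 55.5 on day 6 and 25.7 and 32.7 on day 8 (-2.03, SE 0.33, and -2.90, SE 0.35). RN7SL1, the RNA of the signal recognition particle, had 1704 and 1573, then 395 and 391, then 348 and 401 (-2.06 and -2.11, SE 0.11 on both days), and it is uncertain because the genome holds many near copies. Both kept their calls without any 1 library. On day 8 the Notch ligand DLL4 was lower (-2.03, SE 0.35, adjusted p = 0.0105, up to 0.0802 without the larger day 8 library), with 1173 and 702, then 680 and 337, then 243 and 206. The receptor phosphatase PTPRK had 587 and 376, then 741 and 374, then 50.5 and 53, a change of 0.16 on day 6 and -3.14 (SE 0.48, adjusted p = 0.00683, and 0.0667 without the larger day 8 library) on day 8. NOMO3, a member of a family of near-identical genes, and RAB11FIP3, an effector of endosome recycling, were lower on day 8 at -2.12 and -1.98, with adjusted p of 0.0542 and 0.251 without the larger untreated library. On day 6 NOMO3 was lower at -1.16 (0.222 without that library) and RAB11FIP3 had -2.05 (adjusted p = 0.0511).

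The cytokines and chemokines of the secretory programme that were tested were not raised as a group on these days. Of 36 listed, 22 met the limit on the deposited mean, and the others were not tested. Of these 22, 1 was higher and 2 lower on day 6, and 1 was higher and 3 lower on day 8. The medians were -0.22 and -0.29. IL6 had 91.6 and 58.6 normalized counts in untreated cells, 64.6 and 47 on day 6 and 45.3 and 94.5 on day 8, with overlapping groups and changes of -0.40 (SE 0.44, adjusted p = 0.578) and 0.02 (SE 0.39, adjusted p = 0.985). CCL2 had 900 and 604, then 947 and 1150, then 519 and 1221, so the day 8 libraries straddled the untreated ones (0.52, SE 0.38, and 0.19, SE 0.38). The growth factor NRG1 was the member that rose (0.71 and 0.77). The chemokine CXCL12 had 448 and 386, then 146 and 155, then 192 and 264 (-1.45, SE 0.20, and -0.82, SE 0.17), and the hyaluronan-binding TNFAIP6 changed by -1.46 and -1.66. IL11 was lower on day 8 (-1.19) and had -0.76 (adjusted p = 0.0892) on day 6. Calls of this list numbered 1 and 0 without the smaller untreated library and 1 and 1 without the larger one, and 1 on day 6 without the larger day 6 library, but 6 on day 6 without either day 8 library. With 1 library left out the adjusted p went up to 0.149 for CXCL12 on day 8, 0.177 for TNFAIP6 and 0.138 for IL11.

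Inflammatory feedback and interferon genes gave few calls. Of 14 NF-kB feedback genes the deubiquitinase TNFAIP3 was lower on both days (-0.97 and -0.85) and BIRC3, an inhibitor of cell death, on day 8 (-0.93), and the medians were -0.35 and -0.23. Of 27 interferon-stimulated genes ISG15 was higher on day 6 (0.74, SE 0.20, adjusted p = 0.0452), while on day 8 limma called none and the list median was 0.06 on both days. In this list the day 8 libraries stood apart, with a median difference from the untreated mean of -0.53 in the smaller and 0.52 in the larger. Each of these calls was lost without an untreated library, at adjusted p up to 0.263 for TNFAIP3, 0.296 for BIRC3 and 0.192 for ISG15. Other omissions gave more calls. Without either day 8 library 5 NF-kB feedback and 2 interferon-stimulated genes were called on day 6. On day 8 there were 4 NF-kB feedback genes without the larger day 8 library and 4 interferon-stimulated genes without the smaller one.

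Extracellular matrix genes moved in both directions, and 2 chains of basement membrane collagen IV, COL4A1 and COL4A2, were lower. COL4A1 stood at 28239 and 25309 in untreated cells and 14476 and 14003 on day 6, with a mean of 10399 on day 8 (-0.91, SE 0.14, and -1.35, SE 0.15). COL4A2, its partner in the same triple helix, stood at 40241 and 42056 and then at 24142 and 22073, with a mean of 16974 on day 8 (-0.83, SE 0.12, and -1.28, SE 0.12). COL15A1, also of basement membrane zones, changed by -2.00 and -1.71. Conversely the collagen IV chains COL4A5 and COL4A6 were higher on day 8 by 0.54 and 0.44. In all, 4 of 25 collagens were lower and none higher on day 6, and 5 were lower and 2 higher on day 8, with medians of -0.40 and -0.44. On day 6 the COL4A1 and COL4A2 calls were lost without either untreated library. On day 8 they were kept without any 1 library, but their day 8 reads per library are not settled. Leaving out a day 8 library therefore cannot show how firm these 2 calls are. COL15A1 lost its calls on both days without the larger untreated library. Without that library 0 collagens were called by limma on day 6 and 2 on day 8, without the smaller one or the larger day 6 library 2 on day 6, and without either day 8 library 8 on day 6.

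Of 25 laminins and integrins, 4 were higher and 4 lower on day 6 and 2 were higher and 6 lower on day 8, with medians of 0.02 and 0.04. The integrin ITGA4, a receptor for fibronectin and VCAM1, had 1507 and 1531, then 822 and 673, then 758 and 849 (-1.04 and -0.91, SE 0.12 on both days) and kept its calls without any 1 library. ITGA8, a nephronectin receptor, changed by -1.51 and -1.36 (adjusted p up to 0.0802 and 0.11 without the smaller untreated library), while the collagen receptor ITGA11 (0.62 and 0.60) and laminin LAMA4 (0.44 and 0.53) rose. ITGA10 was lower on day 8 (-0.89, up to 0.264 without the larger untreated library). Without either untreated library 1 member was called on each day, without the smaller or the larger day 6 library 3 and 4 on day 6, and without the larger day 8 library 1 on day 8.

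Of 30 elastic fibre and matricellular genes, 3 were higher and 3 lower on day 6 and 1 was higher and 8 lower on day 8, with medians of -0.25 and -0.18. Elastin, ELN, was among the lower ones on day 8 (-3.35, SE 0.84, adjusted p = 0.0414), but its libraries differed widely within each group (351 and 206, then 264 and 43.3, then 51.5 and 17.5) and the call was lost without the larger day 8 library (0.258). The matricellular glycoprotein TNC was lower on day 8 (-0.98, up to 0.213 without the larger untreated library), and the collagen-binding FMOD was higher on both days (1.00 and 1.10, up to 0.286 and 0.243 without that library). Without the larger untreated library 1 member was called on each day, without the smaller one 2 and 3, without the larger day 6 library 3 on day 6, and on day 8 without the smaller or the larger day 8 library 2 and 4.

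Of 23 matrix proteases and inhibitors, 3 were higher and 3 lower on day 6 and 2 were higher and 3 lower on day 8 (medians -0.13 and -0.22). The stromelysins MMP3 (1178 and 577, then 462 and 342, then 288 and 201) and MMP10 (143 and 29.3, then 10.2 and 8.47, then 5.15 and 2.31) were lower on day 8 at -1.82 and -4.10. Their day 6 values of -1.04 and -2.66 were not called (adjusted p = 0.0735 and 0.083), and without the larger day 8 library the day 8 calls were lost (0.102 and 0.213). MMP24, a membrane-bound protease, was higher on both days (0.91 and 1.17, up to 0.231 and 0.141 without the larger untreated library). Without the smaller untreated library 0 members were called by limma on day 6 and 2 on day 8, and without the larger one 2 on each day. Without the smaller or the larger day 6 library 2 and 3 were called on day 6, and without the larger day 8 library 2 on day 8.

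Among 24 genes of TGF-beta and BMP signalling, 2 were higher and 2 lower on day 6 and 3 were higher and 3 lower on day 8 (medians -0.13 and -0.17). The day 6 count was near the 14.0% called over all genes tested, and on day 8 that share was 11.2%. The ligand TGFB3 was higher on day 8 (1.30), and the inhibitors SMAD6 (-0.80 and -0.65) and SKIL (-0.45 and -0.81) were lower on both days. All of these were lost without the smaller untreated library at an adjusted p up to 0.134 for TGFB3, 0.0578 and 0.111 for SMAD6, and 0.266 and 0.0578 for SKIL. Of 22 actin and SRF targets, 2 were lower on day 6 (TPM4 -0.55 and SRF -0.44), and on day 8 TPM4 was lower (-0.56) and LMOD1 higher (0.42). Of 16 YAP and TEAD targets 3 were lower on day 6 and 1 on day 8, with CCN1, a matricellular protein, called on both (-0.60 and -0.45). With either untreated library left out limma called no actin or YAP target (adjusted p up to 0.219 for TPM4, 0.17 for SRF, 0.166 for LMOD1 and 0.213 for CCN1). In the IGF axis, PAPPA, the protease that frees IGF from its binding protein, had 1892 and 1526, then 3194 and 4267, then 4455 and 4256 (1.12, SE 0.15, and 1.36, SE 0.16) and kept its calls without any 1 library. Of the 12 members, IGFBP3 (-0.90) and IRS1 (-0.39) were lower on day 6 alone, and these calls were lost without the larger untreated library (0.131 and 0.22).

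Genes of membrane repair hardly moved. Of 25 ESCRT genes CHMP1B was called higher on day 6 (0.40, SE 0.11, adjusted p = 0.0424, up to 0.298 without 1 library) and limma called none on day 8, with medians of 0.09 and 0.05. CHMP4B, the filament-forming ESCRT-III subunit that closes membrane wounds, had 3053 and 3033 in untreated cells, 3444 and 3269 on day 6 and 3232 and 3054 on day 8. Its changes of 0.14 (SE 0.09, adjusted p = 0.304) and 0.05 (SE 0.09, adjusted p = 0.754) were within the error of the test. Of 17 annexins and ferlins, ANXA4 was higher on both days (0.41 and 0.53) and FER1L4, a ferlin pseudogene, on day 8 (1.36), and these calls were lost without the larger untreated library (adjusted p up to 0.279 and 0.167 for ANXA4 and 0.11 for FER1L4 when 1 library was left out).

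Among 22 genes of calcium handling, 4 were higher and 2 lower on day 6, and 5 were higher and 3 lower on day 8 (medians 0.11 and 0.14). ORAI3, a store-operated calcium channel, had 217 and 212, then 408 and 434, then 347 and 378 (0.97, SE 0.14, and 0.77, SE 0.14). STIM1, the sensor that opens such channels, was higher by 0.37 and 0.47. The IP3 receptors diverged: ITPR2 was higher (0.67 and 0.63), ITPR3 lower (-0.80 and -0.74), and ITPR1 was higher on day 8 (0.78). ATP2B1, the pump that expels calcium through the plasma membrane, was lower (-0.51 and -0.56). Without the larger untreated library limma called 0 members on each day, without the smaller one 3 on day 6 and 0 on day 8, and without the larger library of the same day 3 on each day, with adjusted p up to 0.068 and 0.127 for ORAI3, 0.116 and 0.145 for ITPR3 and 0.137 for ITPR1 on day 8.

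Lysosomal genes were higher in part. Of 29 tested, 13 were called higher on day 6 and 12 on day 8, none was lower, and the medians were 0.33 and 0.32. CTSF, a cathepsin, had 344 and 294, then 597 and 469, then 613 and 670 (0.73, SE 0.17, and 1.02, SE 0.16). The glycosidase FUCA1 had 40.4 and 29.3, then 73.6 and 67.7, then 95.8 and 92.2 (1.03 and 1.43), and GPNMB, a glycoprotein of stressed lysosomes, had 344 and 359, then 628 and 680, then 434 and 562 (0.89 and 0.52, called on day 6). GLB1, which encodes the beta-galactosidase stained in senescent cells, was higher by 0.33 and 0.36. PSAP (0.63 and 0.65), NPC2 (0.64 and 0.59), CTSD (0.49 and 0.51) and ASAH1 (0.54 and 0.72) were called on both days as well. On day 6, 23 of the 29 genes had both treated libraries above both untreated ones (30.5% of all genes tested did), and on day 8 it was 21 (29.2% of all genes). The calls nevertheless leaned on the untreated libraries, since 1 and 3 members were called without the smaller one and 0 on both days without the larger one by limma. Without the larger day 8 library 6 were called on day 8, and without the smaller day 6 library 5 on day 6. The adjusted p went up to 0.208 and 0.0964 for CTSF, 0.29 and 0.138 for FUCA1 and, on day 6, 0.0968 for GPNMB without the larger untreated library.

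**Figure D3:**
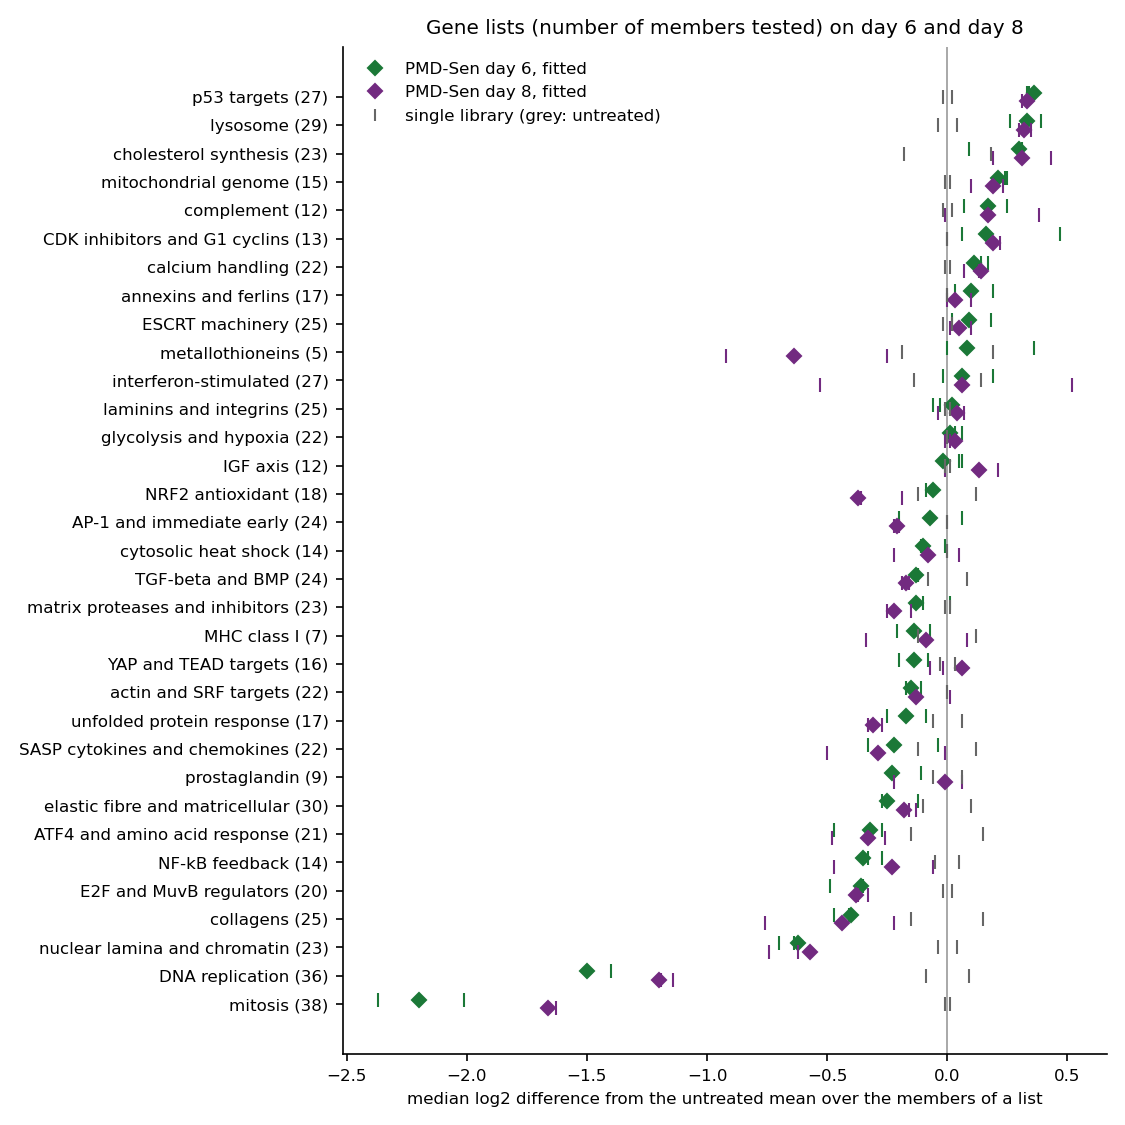
Median log2 difference from the untreated mean over the members of 33 gene lists, with diamonds for the fitted values on day 6 and day 8 and ticks for the single libraries. Mitosis and DNA replication lie far to the left, and p53 targets, lysosome and cholesterol synthesis lie furthest to the right, from 0.3 to 0.36. Outside mitosis and DNA replication, the diamonds lie within 0.5 of 0 except lamina and chromatin on both days and metallothioneins on day 8.

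Of the amino acid and stress programmes, that of ATF4 was lower in part. Of 21 members 6 were lower on day 6 and 7 on day 8, with medians of -0.32 and -0.33. SLC7A5, the leucine transporter, had 2421 and 3370, then 1291 and 1106, then 1321 and 1146 (-1.26 and -1.22, SE 0.16 on both days) and kept its calls without any 1 library, and PHGDH, the first enzyme of serine synthesis, changed by -1.24 and -1.05 (adjusted p = 0.0807 and 0.134 without the larger untreated library). CHAC1, a glutathione-degrading enzyme, was called on day 8 (-1.06, up to 0.155). Of 17 unfolded protein response genes 4 were lower and 1 higher on day 6 and 3 lower on day 8 (medians -0.17 and -0.31), among them the chaperone factors MANF (-0.51 and -0.60), PDIA4 (-0.53 and -0.51) and, on day 6, HSPA5 (-0.53). Of 14 heat shock genes the mitochondrial chaperonin HSPD1 was lower on both days (-0.63 and -0.47) and HSPB8 higher on day 6 (0.75). With either untreated library left out limma called no heat shock or unfolded protein response gene (adjusted p up to 0.138 for MANF, 0.228 for PDIA4, 0.269 for HSPA5, 0.195 for HSPD1 and 0.191 for HSPB8). Calls of the ATF4 list numbered 2 and 1 without the larger one, 4 on each day without the smaller one, and 3 on day 8 without the larger day 8 library.

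Of 18 NRF2 antioxidant genes 2 were lower on day 6 and 3 on day 8, with HMOX1 at -0.85 on day 6, GCLM at -0.51 on day 6 and OSGIN1 at -0.59 on day 8. Of 5 metallothioneins limma called none on day 6 and MT1E on day 8 (-1.01). Of 24 AP-1 and immediate early genes, 2 were higher and 2 lower on day 6 and 5 were lower on day 8. KLF2, a quiescence factor, had 500 and 539, then 344 and 241, then 212 and 182 (-0.87 and -1.43), NR4A2 was called on day 6 (1.60) and FOS on day 8 (-1.70). Of these genes only KLF2 on day 8 kept its call without each of the untreated libraries, and elsewhere the adjusted p went up to 0.171 for HMOX1, 0.226 for GCLM, 0.26 for OSGIN1, 0.193 for MT1E, 0.269 for NR4A2, 0.136 for KLF2 on day 6 and 0.194 for FOS.

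Cholesterol synthesis genes had a median of 0.30 and 0.31. Limma called none of the 23 on day 6 and 2 on day 8, LSS (0.50) and TM7SF2 (0.97). Of 9 prostaglandin genes the receptor PTGER2 was lower on both days (-0.96 and -0.71) and PTGES3 on day 6 (-0.36). Of 12 complement genes CD46, which protects cells from complement, was higher on both days (0.40 and 0.50) and SERPING1, the C1 inhibitor, on day 8 (0.97). Of 22 glycolysis and hypoxia genes NDRG1, a stress-induced protein, was higher (1.03 and 0.76) and PFKP, a phosphofructokinase, lower (-0.79 and -0.94). Of 15 mitochondrially encoded genes MT-RNR1 was higher on both days (0.64 and 0.70) and MT-ND6 on day 6 (0.43). Beyond NDRG1 on day 6 and PFKP on day 8, each of these calls was lost without an untreated library, at adjusted p up to 0.195 for LSS, 0.215 for TM7SF2, 0.226 for PTGER2, 0.221 for PTGES3, 0.183 for CD46, 0.167 for SERPING1, 0.0705 for NDRG1, 0.0674 for PFKP, 0.168 for MT-RNR1 and 0.22 for MT-ND6.

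Markers of cell identity gave few calls. Among 14 fibroblast markers the protease FAP was lower on both days (-0.58 and -0.74), with medians of -0.14 and -0.05. Of 3 endothelial markers tested EGFL7 was higher (0.90 and 0.84), while CDH5, the defining cadherin of that cell type, was at 0. The median of the 3 was 0.59 on day 6 and -0.06 on day 8. Limma called none of the 4 epithelial (median 0.30 on both days), 1 leukocyte (0.20 and 0.86) and 4 neuronal markers tested (-0.01 and -0.23). FAP and EGFL7 lost their calls without the larger and the smaller untreated library (adjusted p up to 0.235 and 0.118).

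Day 8 was then compared with day 6 directly. Only 1 gene was called (0.00702%), while 1248 (8.76%) had an unadjusted p under 0.05, and the median SE of this comparison was 0.14. In simulated data with a dispersion set at 0.05, this test found 12% of genes changed by a log2 fold change of 1 on day 8 alone. That dispersion was not estimated from these data, so the 12% need not hold here. A low number of calls does not by itself show that the days were alike. The called gene was EEF1B2, a subunit of translation elongation factor 1, with 2980 and 3371 normalized counts in untreated cells, 92.9 and 101 on day 6 and 1757 and 1733 on day 8. The change between the days was 4.16 (SE 0.16, adjusted p = 7.46e-05). Its level also jumped between libraries of 1 group elsewhere in the SDS course, with 4234 and 188 on day 0 and 71.6 and 1728 on day 3. With the spread of the whole course in the fit the difference was no longer called (SE 1.94, adjusted p = 0.399). Processed copies of this gene stand elsewhere in the genome, and their part in the counts was not tested. EEF1D, another subunit of the factor, differed within the untreated group (52.8 and 762) and was not called.

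**Figure D4:**
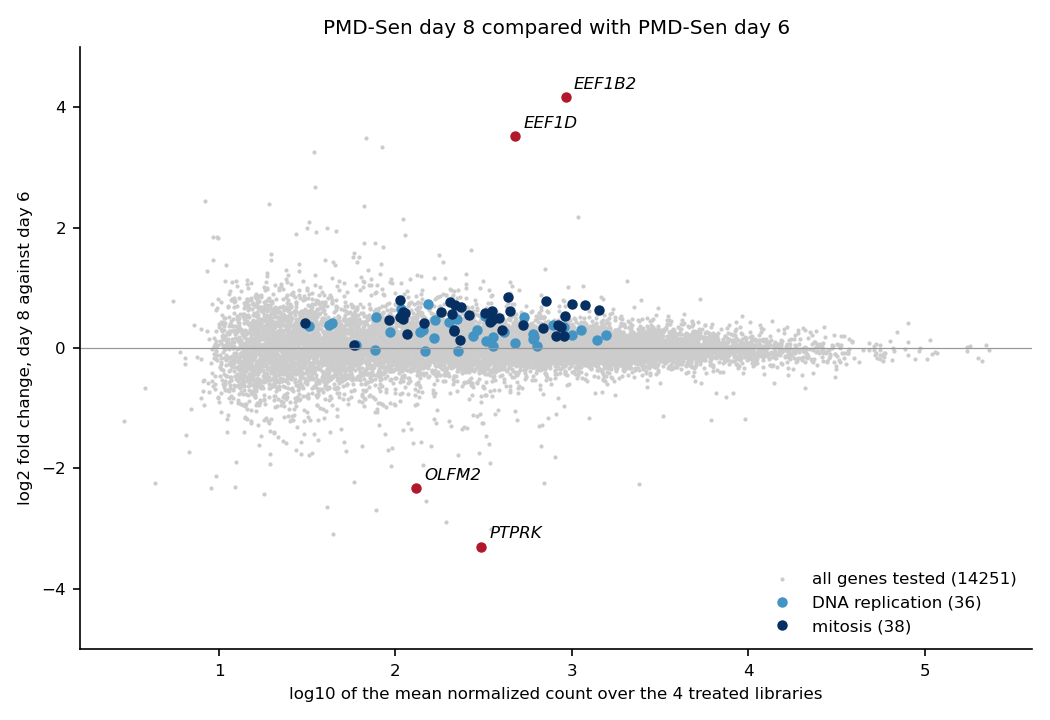
Log2 fold change of day 8 against day 6 (vertical axis) by the log10 mean normalized count over the 4 treated libraries (horizontal axis). EEF1B2, at 4.16, is the one gene called, and nearly all mitosis genes lie above 0.

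OLFM2 had 102 and 82.8 normalized counts in untreated cells, 242 and 190 on day 6 and 51.5 and 37.8 on day 8. The 3 groups did not overlap. It was higher on day 6 (1.21, SE 0.24, adjusted p = 0.0156) and lower on day 8 (-1.12, SE 0.28, adjusted p = 0.0413), and the difference of -2.33 (SE 0.24) between the days just missed the threshold (adjusted p = 0.0602).

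The mitosis genes stood higher on day 8 than on day 6 throughout. All 38 had a positive change, 34 had both day 8 libraries above both day 6 libraries (19.6% of all genes tested did), and 28 had an unadjusted p under 0.05, while limma called none after adjustment. The median was 0.51. Of 36 DNA replication genes 33 were higher on day 8, with a median of 0.27 and 7 at an unadjusted p under 0.05. Of 23 lamina and chromatin genes 18 were higher and 9 had an unadjusted p under 0.05. Of the p53 targets 17 of 27 were higher (median 0.04) and 2 had an unadjusted p under 0.05, and of the lysosomal genes 14 of 29 (median -0.01) and 3. The collagens went both ways, with 13 of 25 higher, a median of 0.02 and 5 at an unadjusted p under 0.05, COL4A1 (-0.44) and COL4A2 (-0.45) among these, with neither called. Each day was 2 libraries, so the time after the wash and the culture of those libraries cannot be told apart.

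The neighbouring times place both days in the course. Against day 4, in a fit over all libraries of the SDS course, day 6 had 2 genes called (0.014%), OLFM2 and the plasminogen activator PLAT, both higher, and 1846 at an unadjusted p under 0.05. The PLAT call is uncertain, because more than 1 split of its day 6 reads between the libraries gave the deposited mean. The split kept was 0.68 apart on the log2 scale, and the nearest one set aside 0.75. Against day 8, day 16 had 342 genes higher (2.4%) and 549 lower (3.85%). All 38 mitosis genes were lower on day 16 than on day 8, and 30 were called. The median difference of the mitosis genes from the untreated mean was -1.91 and -2.03 in the day 4 libraries, -2.37 and -2.01 on day 6, -1.63 and -1.66 on day 8, and -3.44 and -2.35 on day 16. In both libraries of day 8 the fall was the smallest of these 4 times. CCND2 had 1525 and 1534 on day 4 and 3023 and 3711 on day 16, and was higher on day 16 than on day 8 by 0.67 (SE 0.13, adjusted p = 0.02). CDKN1A had 35174 and 31840 on day 16. Of the interferon-stimulated genes, 3 were called higher on day 16 than on day 8. IL6, with 183 and 83.7 on day 16, overlapped its untreated libraries there too.

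**Figure D5:**
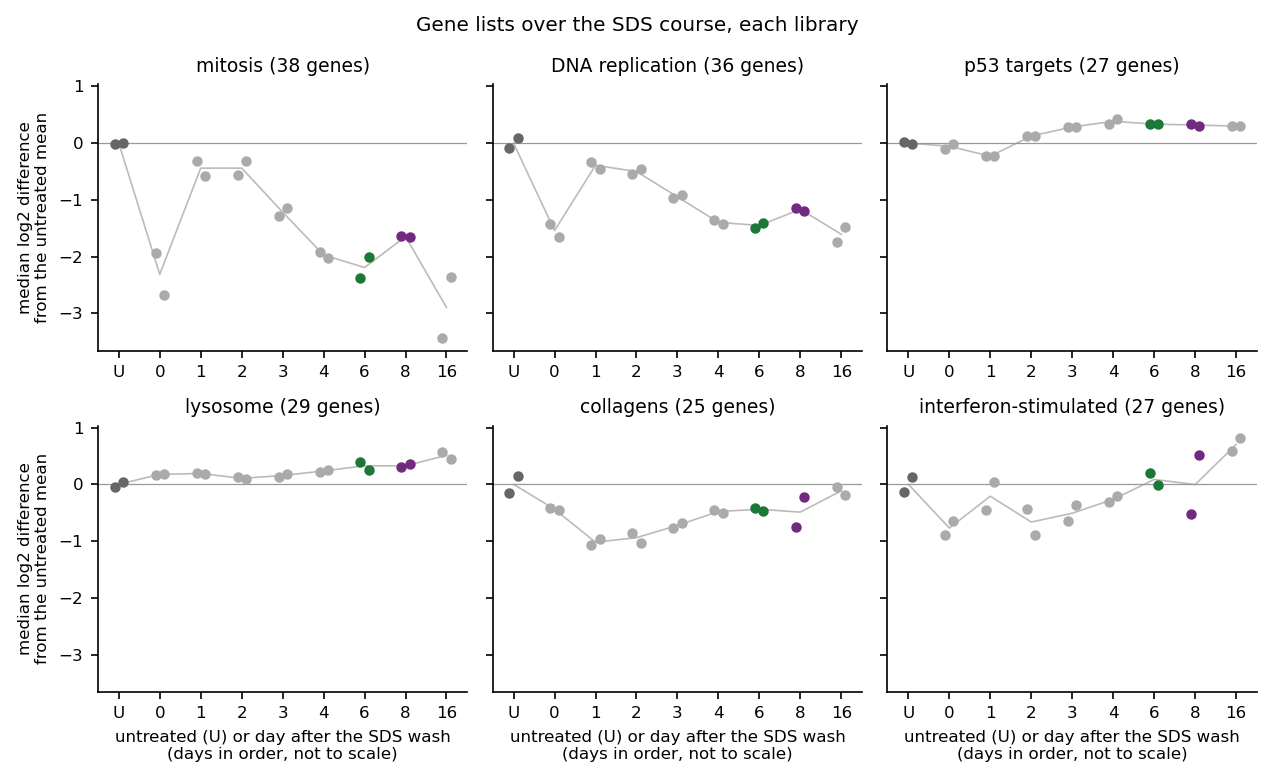
Median log2 difference from the untreated mean over the members of 6 gene lists in each library of the SDS course, with untreated (U) and days 0 to 16 after the wash in order and the line through the means. Day 6 is green and day 8 purple; the mitosis genes on day 8 lie above their day 6 and day 16 positions, while the p53 targets lie between 0.28 and 0.43 from day 3 on.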

How the data were processed

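The mRNA of WI-38 cells was sequenced in 52 libraries, and 6 of them (2 untreated, 2 PMD-Sen day 6, 2 PMD-Sen day 8) are described here. The authors deposited comparison tables, each present in 2 copies, not counts per library. The mean of normalized counts per gene that the authors deposited was used as a signal. The other deposited columns hold the authors' own log2 fold changes, standard errors, test scores and p-values, and none was used. The submitters' processing notes name Trim Galore, HISAT2, HTSeq, featureCounts and DESeq2 and the builds GRCh38 and hg38, and versions and roles are not given in the sources used here. Other columns of per-sample values numbered 0.

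As each mean is a fixed sum of whole reads over size factors, whole reads per library were recovered from 17 tables of 59408 genes by lattice reduction (Python 3.11.15, NumPy 2.4.6, SymPy 1.14.0). All 25085 genes above 0 in every table were solved, and 2 separate sets of 5 tables gave the same untreated reads for 25076 of 25076 genes. The recovery was also tested on simulated tables. For 42 genes on day 6 and 356 on day 8, all with a mean above 10000, several pairs of reads were possible. For a further 220 genes on day 6 and 1 on day 8 a single pair was left only once pairs over 0.7 apart on the log2 scale were set aside. The library values of CDKN1A on days 6 and 16 and of COL4A1 and COL4A2 on day 6 rest on this limit. So do the fits of PLAT, TPM4, HSPA5, PSAP, MT-RNR1 and MT-ND6 on day 6, among others. The group mean is the same for each pair. Where several pairs were left, the most uneven pair within the limit set was fitted, and only the mean is printed. The day 8 fits of CDKN1A, COL4A1 and COL4A2 rest on such a pair, among others. The recovered libraries carry no replicate number.

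The libraries of the 3 groups entered 1 fit of limma 3.58.1 voom (R 4.3.3), with the size factors behind the deposited means, and p-values adjusted by the Benjamini-Hochberg method over 14251 genes. Genes were called at an adjusted p under 0.05. The test fixed for the recovered reads was limma voom, and count models were not run on them. The labels' replicates are separate samples, and the p-values measure the spread between these samples only. The fit was tested on simulated data with 200 changed genes and a dispersion of 0.05. Against untreated, at a log2 fold change of 1, it found 19% of these genes on day 6 and 15.5% on day 8. At 2 it found 95.5% and 94.5%, and at 0.5 it found 0% on both days. For genes changed on day 8 alone, the test between the days found 12% at 1 and 92% at 2. Of the calls at 1 against untreated, 11.6% on day 6 and 6.06% on day 8 were false. The dispersion was set and not estimated from these data. The reported fit called some genes with changes below 0.5, so these simulated shares need not hold for it.

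Members and gene lists were chosen with earlier results of these data known. Named genes were the 10 largest rises and falls on each day among calls whose mean reached 100 and whose libraries did not overlap untreated ones, the 5 largest between the days, up to 3 members of each list, and CDKN1A, CDKN2A, LMNB1, MKI67, GDF15, IL6, CCL2, MDM2, H2AJ and CHMP4B. There were 117 named by this rule, of which the text describes most, and 4 within it were not named. Some results on single genes are not reported here. List members outside the rule are examples picked with their values known. The histone genes, the comparisons with days 4 and 16 and the most even pair of reads were added later, with the data known. The 16 alternatives changed the scaling, the filter, the test, the libraries fitted or the fold limit. Figures were drawn with matplotlib 3.10.9.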

Additional observations from a re-analysis of the deposited data

Results flagged for a closer look

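EEF1B2 differed between day 8 and day 6 by 4.16 on the log2 scale (SE 0.16, adjusted p = 7.46e-05 by limma), the one gene for which the test of the difference between the days passed the threshold. Both libraries of each day gave this difference. In the fit over all libraries of the SDS course the adjusted p was 0.399.

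OLFM2 was higher than untreated on day 6 and lower on day 8 in every library, with a difference of -2.33 (SE 0.24) between the days. Its adjusted p of 0.0602 missed the threshold, and over the alternatives it ranged from 0.0197 with a mean of at least 1 to 0.495 without the larger day 8 library.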

How the results depend on the processing

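No paired analysis was possible because the recovered libraries carry no replicate number. No named gene changed sign under the 16 alternatives where it was called in the reported or the alternative fit. Sign changes of list medians and of genes called in neither fit were not counted. Of 1136 list medians 155 moved beyond the limit set, as did 334 of 1212 counts of list members called. Genes called on day 6 numbered 3305 with all libraries of the SDS course in the fit, 527 when a log2 fold change of 1 or more was also required, and 347 to 2207 with 1 library left out (1996 as reported). On day 8 the numbers were 2959, 470, and 296 to 1620 (1595 as reported). Between the days they were 3 with a mean of at least 1, 4 and 3 with limma's trend at pseudocounts of 1 and 4, and 1 to 7 with 1 library left out (1 as reported). With the course in the fit 1 gene was called between the days, OLFM2, which was lower on day 8 (limma, adjusted p = 0.0233), and EEF1B2 was not called there (adjusted p = 0.399). Calls over all lists and both days numbered 409 as reported, 186 to 398 with 1 library left out and 190 with the fold limit. Scaling by library totals or by the 75th percentile gave 1972 and 2014 calls on day 6 and 1560 and 1543 on day 8. Of 90 calls of named genes on day 6, 36 were kept in all 6 fits that leave out a library, and on day 8 31 of 92. Leaving out a library leaves its group with 1, which is then assumed to vary like the other groups. The untreated libraries are the shallowest of the 6 and enter both comparisons, and the part of depth in the calls was not tested.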
